A study of Drosophila melanogaster with 4 samples.

Results

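The structural cuticle protein genes of *Drosophila melanogaster* were examined in RNA-seq libraries of larvae in the third instar. The members are the genes whose symbol starts with Cpr (without *Cpr* itself, which encodes the cytochrome P450 reductase), Lcp, Ccp84 or Twdl. The files list 117 such genes of 13556 genes in all, with 70 Cpr, 15 Lcp, 7 Ccp84 and 25 Twdl genes. Symbols chose the members, and measured values entered only where *Cpr65Ax1* and *Cpr65Ax2*, which have identical values in all 4 libraries, were counted as 1, which leaves 116. The 4 libraries hold total RNA of whole larvae after depletion of rRNA. A pair came from the wildtype strain Oregon R and a pair from HP1a mutants, in which the alleles 04 and 05 of *Su(var)205*, the gene for HP1a, stand in trans. All stocks were kept on cornmeal medium at 25°C and 70% humidity. The mutant larvae were picked from a cross of balanced parents as those without the GFP of the balancers, they had HP1a supplied by the mother early in life, and Oregon R is a strain apart from that cross. The question was how gene expression differs when HP1a, a heterochromatin protein, is depleted.

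Insect cuticle is made of chitin fibres and structural proteins that the epidermis, the tracheae and the fore- and hindgut secrete. The Cpr, Lcp and Ccp84 proteins share the Rebers-Riddiford consensus, a stretch that binds chitin, and the Tweedle (Twdl) proteins form a separate family named for a mutation that makes larvae and pupae short and stout. Each stage lays down its own cuticle, and many of these genes are switched on for short windows around a moult under the control of ecdysone. Members often lie next to each other in the genome as copies of a common ancestor, and closely related copies can share sequenced fragments.

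Values are FPKM (fragments per unit of transcript length and of sequencing depth) as the authors deposited them for each RefSeq transcript, summed here per gene. FPKM are per length, and levels of different genes are compared here on that scale. An order by fragments, without regard to length, can differ. The confidence bounds of each value imply between 7255105 and 7625084 fragments on transcripts per library. The cuticle protein genes took 0.782% (replicate 1) and 0.820% (replicate 2) of these fragments in wildtype. In the HP1a mutant the shares were 2.37% and 1.496%. *Cpr65Ax1* and *Cpr65Ax2* both enter these shares, with 10183 and 1655 fragments each in mutant replicates 1 and 2. For *Su(var)205*, wildtype FPKM of 125 and 137 stood against 27.8 and 20.1 in the mutant, and the gene fell by 2.42 on the log2 scale (adjusted p = 0.00275, limma). Of the epidermal and tracheal markers, *verm* had 11.6 and 9.50 FPKM in wildtype and 35.0 and 21.7 in the mutant, and *serp* 37.7 and 43.5 against 107 and 65.5. Both were higher in the mutant without overlap but did not pass (adjusted p = 0.0164 and 0.0340, limma). *Gasp* overlapped, with 51.7 and 58.5 FPKM in wildtype and 73.6 and 53.5 in the mutant. *grh*, a regulator of epidermal genes in the same list, had 13.8 and 11.5 FPKM in wildtype and 4.95 and 4.40 in the mutant and fell by 1.26 (adjusted p = 0.00544, limma). The marker *sha* was at or below 0.126 FPKM in all 4 libraries. The median gene was lower in the mutant, with a log2 fold change of -0.84 over the 9438 genes tested, and log2 fold changes below are best read against that shift. Because whole larvae were used, fewer cells of a type and less RNA per cell cannot be told apart.

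In wildtype larvae a few genes held most of the cuticle protein signal. *Lcp4*, a major larval cuticle protein, had FPKM of 5041 and 5000 in wildtype replicates 1 and 2. Next came *Cpr78E* at 2470 and 2832, *Lcp1* at 2237 and 2706, *Lcp65Ab1* at 1644 and 1430 when its repeated rows are counted once (3287 and 2859 as summed), and *Cpr49Ac* at 1332 and 1398. *Cpr78E* and *Lcp1* did not differ beyond their spread, and *Lcp4* stood above all others in both libraries. These 5 genes held 78.6% and 78.2% of the members' FPKM with repeated rows counted once (80.4% and 79.8% as summed). *Cpr57A* (842 and 808), *Lcp3* (732 and 948) and *Lcp2* (750 and 792) followed. *Lcp3* overlapped both others, and *Cpr57A* was above *Lcp2* in both libraries. At the other end, 33 members in wildtype replicate 1 and 30 in replicate 2 were listed at 0, and 46 and 49 were above 1 FPKM. The median member had 0.312 and 0.477 FPKM, while the median of all genes was 8.21 and 8.93.

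In the HP1a mutant libraries the order was another. *Lcp65Ab1* led, at 47469 and 29931 FPKM as summed. The transcripts of *Lcp65Ab1* and its copy *Lcp65Ab2* are each listed at both of 2 loci with the same value, so that the sum counts the value of *Lcp65Ab1* double. Counted once, it had 1644 and 1430 FPKM in wildtype and 23734 and 14966 in the mutant, where it still led. It then held 33.0% and 33.9% of the members' FPKM in the mutant (49.6% and 50.6% as summed), after 10.1% and 8.37% in wildtype. *Lcp4*, at 12763 and 10952, and then *Lcp9*, at 8858 and 6013, came next in FPKM. By implied fragments *Lcp4* led instead, with 54740 and 45223.5 against 43844 and 26635 for *Lcp65Ab1*. *Lcp3* had 16683 and 12070 fragments and *Lcp9* 6419 and 4200. *Cpr78E* and *Cpr49Ac* were no longer among the leading members. All 116 members together summed to 17863 and 18535 FPKM in wildtype, and to 95758 and 59150 in the mutant, of which Lcp genes made up 69.1% and 68.1% in wildtype and 83.8% and 89.5% in the mutant. With repeated rows counted once, the sums were 16195, 17081, 72002 and 44166 FPKM in the same order. The Lcp shares were then 65.9%, 65.4%, 78.5% and 86.0%.

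**Figure D1:**
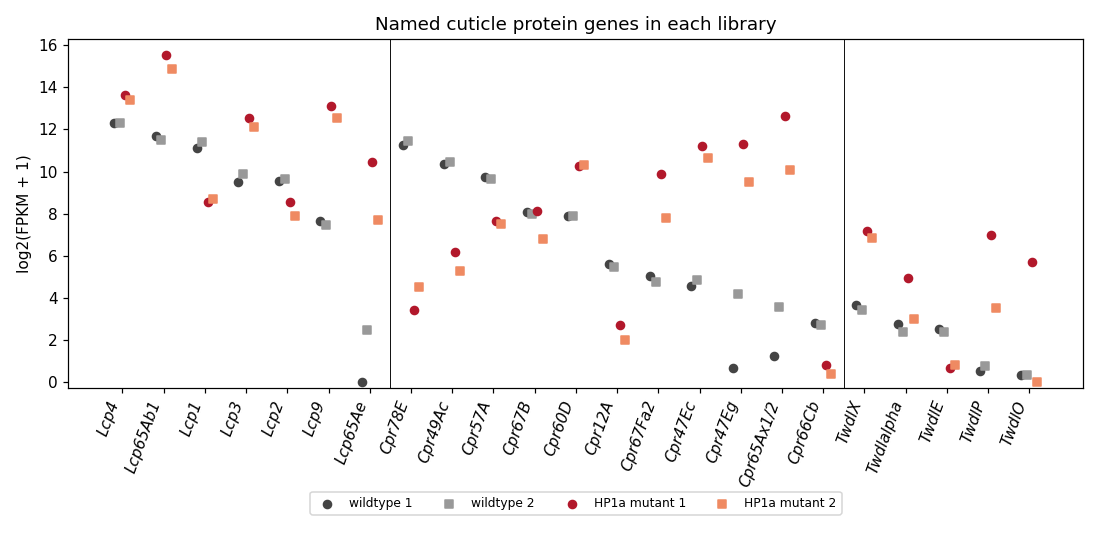
Level of each named and tested cuticle protein gene as log2(FPKM + 1), with 1 point per library (black and grey, wildtype replicates 1 and 2; red and orange, HP1a mutant replicates 1 and 2) and lines between the Lcp, Cpr and Twdl families. *Cpr78E* and *Cpr49Ac* lie far lower in both mutant libraries than in wildtype (*Cpr78E* at 2470 and 2832 against 9.70 and 21.95 FPKM), while *Cpr47Ec* and *Lcp9* go the other way.

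The genotypes were compared with limma (moderated test, two-sided) on log2(FPKM + 1) over all 9438 genes with a mean log2(FPKM + 1) above 1.4 and a Cufflinks status of OK in all 4 libraries, at an FDR of 0.01 with Benjamini-Hochberg adjustment. Of the 116 members, 51 could be tested, 14 Lcp, 32 Cpr and 5 Twdl genes. The other 65 were too low, the highest single value among them being 23.8 FPKM. Of the 51 tested genes, 17 were higher and 7 lower in the HP1a mutant, and 27 did not pass. Over all tested genes, 41.4% passed, 6.98% as higher and 34.4% as lower. With the libraries rescaled to a common median, 1177 of all genes were higher and 945 lower, and 23 members were higher and 6 lower. The tested members had a median log2 fold change of 1.399, against -0.84 over all tested genes. The cutoff was reached only through the mutant libraries by 6 members (*Cpr49Ad*, *Cpr62Bc*, *Lcp65Ae*, *Lcp65Af*, *TwdlO* and *TwdlP*) and only through wildtype by 2 (*Cpr66Cb* and *TwdlE*). These 8 had to differ to be tested, so their test values are no support for a difference. Since, in addition, the families were proposed with results of this contrast known, these counts are descriptions and nothing is read from them. Without wildtype replicate 1 or without wildtype replicate 2, 0 of the 51 passed in limma (30 and 31 at an unadjusted p under 0.05), as did 0 of all 9438 genes (4696 and 4597 at an unadjusted p under 0.05). Without HP1a mutant replicate 2, 26 were higher, and without HP1a mutant replicate 1, 13 were lower.

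**Figure D2:**
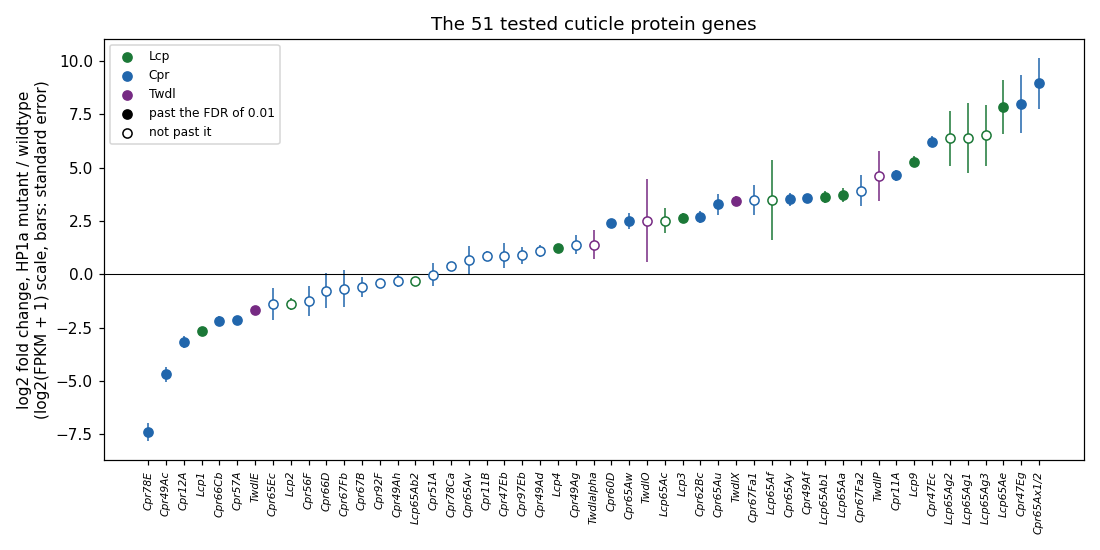
Log2 fold change (HP1a mutant over wildtype, log2(FPKM + 1) scale) of the 51 tested cuticle protein genes in ascending order, with standard errors from limma (green, Lcp; blue, Cpr; purple, Twdl; filled, past the FDR of 0.01). The values run from -7.40 for *Cpr78E* to 8.96 for *Cpr65Ax1*/*Cpr65Ax2*, and the longest error bars belong to genes whose mutant or wildtype replicates lie far apart.

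Whether the libraries of the genotypes overlap can be asked without the filter, but genes near 0 then count too. Very few fragments can decide such an entry. *Cpr73D* counts as above, with 0 fragments in each wildtype library and 2.00 in each mutant library. *TwdlZ* counts as below, on 3.00 and 1.00 against 1.00 and 0. Overlap is judged on FPKM that were not rescaled. The median gene had 8.21 and 8.93 FPKM in wildtype and 4.08 and 3.38 in the mutant. Both HP1a mutant libraries were above both wildtype libraries for 45 of the 116 members, and below them for 16. Over all genes, 14.9% were above and 64.1% below. By family, 11 of 15 Lcp genes were above and 3 below, and 26 of 69 Cpr genes were above and 11 below. Among the Twdl genes, 8 of 25 were above and 2 below, and all 7 Ccp84 genes overlapped.

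The Lcp genes on 2R, the larval cuticle genes *Lcp1* to *Lcp4*, lie within 7.77 kb (2R, Release 5, 4318139 to 4325908) and differed in direction. *Lcp1* had FPKM of 2237 and 2706 in wildtype and 372 and 407 in the mutant. It fell by 2.66 on the log2 scale (standard error 0.19, adjusted p = 0.00231 from limma). Its neighbour *Lcp2* had FPKM of 750 and 792 in wildtype and 369 and 236 in the mutant, without overlap, with a log2 fold change of -1.38 that did not pass (adjusted p = 0.0125, limma). *Lcp3* and *Lcp4*, the other genes of the array, were higher in both mutant libraries. *Lcp3* went from 732 and 948 to 6004 and 4507 (log2 fold change 2.64, standard error 0.25, adjusted p = 0.00287, limma). *Lcp4* went from 5041 and 5000 to 12763 and 10952 (log2 fold change 1.24, standard error 0.18, adjusted p = 0.00616, limma), and missed the FDR without the filter on low values (adjusted p = 0.0123). The summed FPKM of the array was 8759 and 9445 in wildtype and 19509 and 16101 in the mutant. *Lcp9*, alone on 2R (20667558 to 20667892), had 202 and 175 FPKM in wildtype and 8858 and 6013 in the mutant, 39.5 times the wildtype mean, and rose by 5.27 (standard error 0.26, adjusted p = 0.00211, limma).

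The largest array lies on 3L at 65A, where 17 members sit within 31.2 kb (3L, Release 5, 6123485 to 6154689). The array summed to 3418 and 3048 FPKM in wildtype and to 58378 and 32128 in the HP1a mutant, with *Lcp65Ab1* and *Lcp65Ab2* counted double. Of the mutant sums, *Lcp65Ab1* alone gave 47469 and 29931 FPKM, which is 23734 and 14966 when counted once. Counting *Cpr65Ax1* and *Cpr65Ax2* once, 14 were tested, of which 7 rose and 0 fell at the FDR in limma (0 lower also at an unadjusted p under 0.05). Over all tested genes, 6.98% were higher and 34.4% lower. The 7 include *Lcp65Ae*, which was tested only through the mutant, so its test value is no support for a difference. Both mutant libraries were above both wildtype libraries for 12 members, and below for *Lcp65Ab2* alone, against 14.9% above and 64.1% below over all genes. *Lcp65Ab1* rose by 3.62 (standard error 0.29, adjusted p = 0.00250, limma), which the doubled rows do not change. Its overlapping copy *Lcp65Ab2*, with its rows also counted double, had 48.0 and 49.1 FPKM in wildtype and 42.3 and 36.4 in the mutant (log2 fold change -0.30, adjusted p = 0.173, limma). Since the copies share fragments, their split is uncertain. *Lcp65Aa*, from 9.04 and 7.94 FPKM to 166 and 91.9, rose by 3.72. *Cpr65Ay* rose by 3.52, *Cpr65Au* by 3.28 and *Cpr65Aw* by 2.50. *Lcp65Ac* was at 40.6 and 48.5 FPKM in wildtype and 458 and 148 in the mutant and did not pass (adjusted p = 0.0194, limma).

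Several genes of the same array were close to 0 in wildtype replicate 1. *Cpr65Ax1* and *Cpr65Ax2* shared values of 1.34 and 10.7 FPKM in wildtype and 6326 and 1067 in the mutant. At 8.96 (standard error 1.19), their log2 fold change was the highest of all tested genes, although only 2.00 and 16.2 fragments stand behind the wildtype values, and passed in limma (adjusted p = 0.00486). Without HP1a mutant replicate 1 they missed the FDR (adjusted p = 0.0104, limma). *Lcp65Ae* was listed at 0 and at 4.57 in wildtype and at 1387 and 209 in the mutant (log2 fold change 7.84, standard error 1.26, adjusted p = 0.00762, limma), and was tested only through its mutant values. It missed the FDR in limma with a pseudocount of 0.1 (adjusted p = 0.0186), without the filter (0.0114) and when HP1a mutant replicate 1 was left out (0.0171). The 3 copies *Lcp65Ag1*, *Lcp65Ag2* and *Lcp65Ag3* together had 0.372 and 33.8 FPKM in wildtype and 2258 and 416 in the mutant. In wildtype replicate 1 this was 1.00 fragment, divided equally among the copies, so their separate values are uncertain. None of the copies passed (adjusted p between 0.0131 and 0.0262, limma), with log2 fold changes of 6.40, 6.38 and 6.52. Of the 20 tested genes with the highest log2 fold changes, 8 were cuticle protein genes with the *Cpr65Ax* pair counted as 1, and 0 of the 20 with the lowest, where members were 0.540% of the tested genes. They are the *Cpr65Ax* pair, *Lcp65Ae* (tested only through the mutant), the *Lcp65Ag* copies, *Lcp9*, *Cpr47Eg* and *Cpr47Ec*. The *Lcp65Ag* copies share fragments and are no separate cases. The families were proposed with results of this contrast known, so this count is a description and nothing is read from it.

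In the array of Cpr genes at 47E on 2R (7139256 to 7165946), both genes that passed were far higher in the mutant. *Cpr47Ec* had FPKM of 22.3 and 27.4 in wildtype and 2343 and 1575 in the mutant, 78.8 times the wildtype mean, and rose by 6.22 (standard error 0.27, adjusted p = 0.00211, limma). *Cpr47Eg* was at 0.572 and 17.3 in wildtype and 2503 and 725 in the mutant. It passed narrowly in limma (adjusted p = 0.00868), at 7.97 on the log2 scale with a standard error of 1.36, and it missed the FDR with either mutant library left out (adjusted p of 0.0313 and 0.0212). It also missed with a pseudocount of 0.1 (0.0144), without the filter (0.0129), with a mean FPKM above 5 (0.01002) and after quantile normalization (0.01011), all adjusted p from limma. The neighbours between and beside them stayed low or overlapped. *Cpr47Eb* had 10.9 and 14.9 FPKM in wildtype and 43.5 and 13.3 in the mutant, and *Cpr47Ea*, *Cpr47Ed*, *Cpr47Ee* and *Cpr47Ef* were at or below 1.55 FPKM in every library.

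Other Cpr genes that rose were scattered over the arms. *Cpr60D* (2R) went from 238 and 234 FPKM to 1222 and 1277 (log2 fold change 2.40, standard error 0.16, adjusted p = 0.00226, limma). *Cpr11A* (X) went from 3.29 and 2.57 to 118 and 79.3, a rise by 4.65, and *Cpr49Af* (2R) from 21.4 and 24.3 to 247 and 321, a rise by 3.57. *Cpr62Bc* (3L), with 1.00 and 2.00 fragments in wildtype, went from 0.132 and 0.258 to 8.69 and 5.08 FPKM and was tested only through its mutant values. In *Cpr60D*, *Cpr11A* and *Cpr49Af* the difference between genotypes was larger than that between replicates. *Cpr62Bc* had to differ to be tested, so the same comparison is no support for a difference there. *Cpr67Fa1* and *Cpr67Fa2* (3L) were higher in both mutant libraries, *Cpr67Fa2* at 32.1 and 26.0 FPKM in wildtype and 933 and 219 in the mutant, but did not pass (adjusted p = 0.0135 and 0.0110, limma). Both passed with the libraries rescaled (0.00847 and 0.00740) and without HP1a mutant replicate 1 (0.00776 and 0.00421) or replicate 2 (0.00484 and 0.00450).

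Among the Cpr genes that fell, *Cpr78E* (3L, 21659554 to 21660080) changed most. It had FPKM of 2470 and 2832 in wildtype and 9.70 and 21.95 in the mutant, so that the wildtype mean was 168 times the mutant mean. On the log2 scale it fell by 7.40 (standard error 0.41, adjusted p = 0.00211, limma). *Cpr49Ac* (2R, 8274472 to 8277562) went from 1332 and 1398 to 71.8 and 37.3 FPKM (log2 fold change -4.69, standard error 0.35, adjusted p = 0.00245, limma). It sits in an array of 8 genes at 49A, in which *Cpr49Af* rose. *Cpr12A* (X) went from 47.6 and 43.4 FPKM to 5.45 and 3.01 and fell by 3.19. *Cpr57A* (2R) went from 842 and 808 to 196 and 181 and fell by 2.12, but its locus overlaps that of *Obp57d*, with which fragments could be shared. *Cpr66Cb* (3L) went from 6.01 and 5.56 to 0.712 and 0.296 and fell by 2.19, but was tested only through its wildtype values and missed the FDR after quantile normalization (log2 fold change -1.10, adjusted p = 0.0385, limma). In all 5 genes both mutant libraries were below both wildtype libraries. *Cpr67B* (3L), among the most abundant in wildtype at 267 and 253 FPKM, had 274 and 109 in the mutant and overlapped, and the sign of its log2 fold change of -0.58 turned when the libraries were rescaled.

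**Figure D3:**
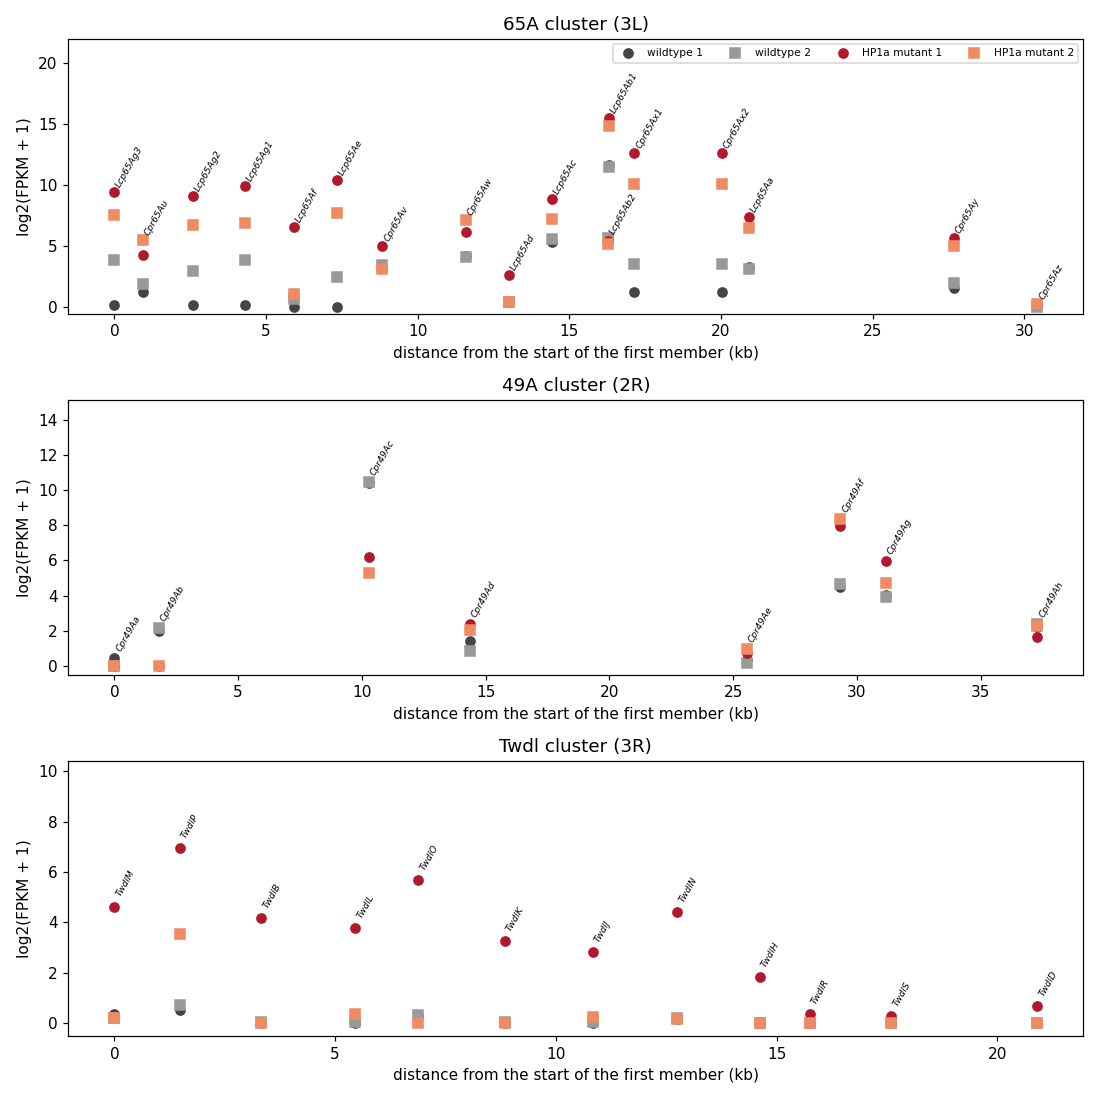
Level of each member, as log2(FPKM + 1), against the distance in kb from the start of the first member in the arrays at 65A, at 49A and in the Twdl array on 3R (black circles and grey squares, wildtype 1 and 2; red circles and orange squares, HP1a mutant 1 and 2). In the 65A array most red and orange points lie above the wildtype points, at 49A *Cpr49Ac* and *Cpr49Af* lie on opposite sides, and in the Twdl array the red points stand alone except at *TwdlP*, where HP1a mutant replicate 2 is raised too.

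Of the 117 members, 85 lie in 15 arrays of at least 3 members spaced by no more than 20 kb. In limma, 2 members of the 47E array and 7 of the 65A array passed, all higher in the HP1a mutant. The 62B array and the Twdl array on the X chromosome had 1 each, *Cpr62Bc* and *TwdlX*, both higher. Over all tested genes, 6.98% were higher and 34.4% lower. *Cpr62Bc*, and *Lcp65Ae* among the 7 at 65A, were tested only through the mutant. In the *Lcp1* to *Lcp4* array and the 49A array, members passed in both directions. The arrays at 65E, 67F and 78C and the array of 12 Twdl genes on 3R had tested members, none of which passed. The arrays at 64A, 72E, 76B and 84A and the Twdl genes at the base of 3R had no member that could be tested.

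The Twdl genes were nearly silent in wildtype, with 3 of 25 above 1 FPKM in either library. These 3 were *TwdlX* (11.7 and 9.70), *Twdlalpha* (5.72 and 4.12) and *TwdlE* (4.63 and 4.10). *TwdlX* (X) had 141 and 114 FPKM in the HP1a mutant and rose by 3.45 (standard error 0.20, adjusted p = 0.00211, limma). *TwdlE* (2L) had 0.597 and 0.723 FPKM in the mutant and fell by 1.69 (standard error 0.19, adjusted p = 0.00375, limma), but was tested only through its wildtype values and missed the FDR with the libraries rescaled (adjusted p = 0.0168). *Twdlalpha* had 29.4 and 6.87 FPKM in the mutant and did not pass (adjusted p = 0.140, limma). The locus of *TwdlX*, *TwdlY*, *TwdlZ* and *Twdlalpha* overlaps that of *goe*, with which fragments could be shared.

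Most other Twdl genes were highest in HP1a mutant replicate 1. In the array of 12 Twdl genes on 3R (22444845 to 22466778), the summed FPKM was 1.14 and 1.349 in wildtype, 267 in HP1a mutant replicate 1 and 11.3 in HP1a mutant replicate 2. The implied fragments were 6, 7.20, 1463 and 52.1. All 12 genes were highest in HP1a mutant replicate 1. *TwdlP* had 0.447, 0.655, 124 and 10.5 FPKM in the same order of libraries, *TwdlO* 0.253, 0.246, 50.7 and 0, *TwdlM* 0.297, 0.145, 23.8 and 0.142, and *TwdlN* 0.139, 0.163, 20.3 and 0.134. In HP1a mutant replicate 2 only *TwdlP* was above 1 FPKM, and it did not pass (log2 fold change 4.61, adjusted p = 0.0264, limma). Like *TwdlO*, it was tested only through the mutant. For *TwdlO*, the log2 fold change was 2.53 with both mutant libraries and -0.32 without HP1a mutant replicate 1. *TwdlD*, the gene in which the Tweedle mutation lies, was listed at 0 in 3 libraries and at 0.596 FPKM, or 4.00 fragments, in HP1a mutant replicate 1. On the X chromosome, *TwdlY* had 0.0744, 0.145, 19.4 and 0.214 FPKM. *Twdlbeta* (2R), with 0.242, 0.236, 3.35 and 1.62 FPKM, was above both wildtype libraries in both mutant libraries.

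Many cuticle protein genes differed between the HP1a mutant replicates. HP1a mutant replicate 1 exceeded replicate 2 by more than 2 in log2(FPKM + 1) for 24 of the 116 members (10 Twdl, 9 Cpr and 5 Lcp genes) and for 1.56% of all genes. The reverse held for 0 members and for 0.42% of all genes. In HP1a mutant replicate 1, 76 members were above 1 FPKM and 13 at 0, compared with 49 and 29 in replicate 2. Besides the Twdl genes, *Cpr65Ea* had 14.1 and 0 FPKM and *Cpr64Ab* 13.0 and 0 in the mutant replicates, with 0 in both wildtype libraries. *Lcp65Af* had 93.4 and 1.14 in the mutant, and 0 and 0.580 in wildtype. All 7 Ccp84 genes, named for their array at 84A, were higher in HP1a mutant replicate 1 than in replicate 2, but at only 0.398 (*Ccp84Ac*) to 2.42 FPKM (*Ccp84Ag*), and none was tested.

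The wildtype replicates were closer, with an exception of 6 genes. *Cpr47Eg*, *Cpr65Ax1*/*Cpr65Ax2*, *Lcp65Ae* and the 3 *Lcp65Ag* copies were more than 2 higher in log2(FPKM + 1) in wildtype replicate 2 than in replicate 1. Over all genes the share was 0.435%. The reverse held for 0 members and 0.251% of all genes. The same 6 were among the members with the highest log2 fold changes between genotypes, and each was also higher in HP1a mutant replicate 1 than in replicate 2, by 3.45 times (*Cpr47Eg*) to 8.46 times (*Lcp65Ag1*). The other abundant members, such as *Lcp4*, *Lcp9* and *Cpr78E*, did not show this difference between the wildtype replicates.

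**Figure D4:**
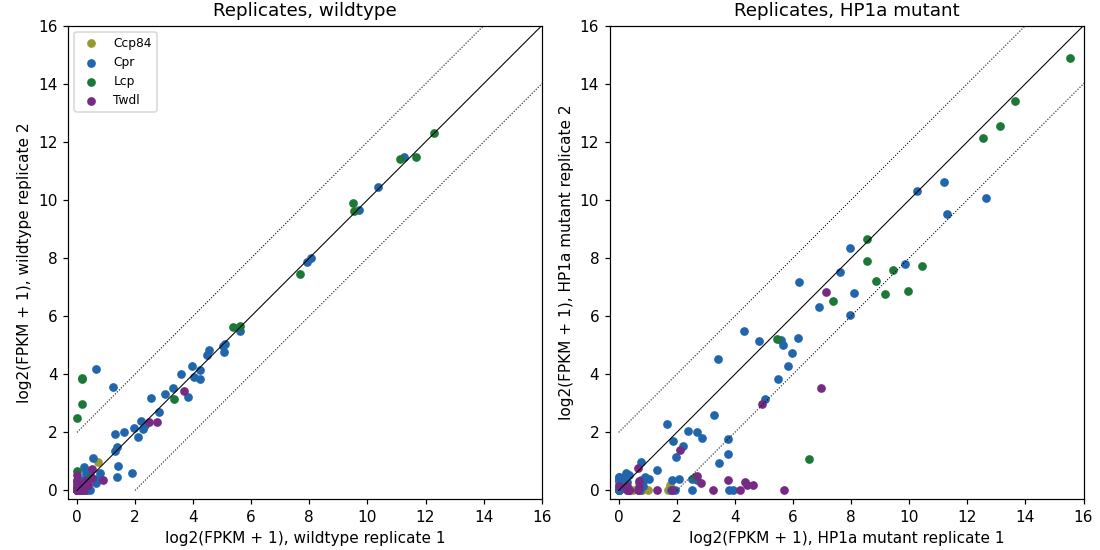
Replicate 2 against replicate 1 for all 116 members, as log2(FPKM + 1), in wildtype (left) and HP1a mutant larvae (right), coloured by family (green, Lcp; blue, Cpr; purple, Twdl; olive, Ccp84). The solid line marks equal values and the dotted lines a difference of 2. In wildtype, 6 genes lie above the upper dotted line, and in the mutant 24 genes lie below the lower one, 10 of them Twdl genes.

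Lists of other cuticle, hormone and tissue genes are given as counts, to be read against the 6.98% higher and 34.4% lower over all tested genes. Of 10 chitin-binding cuticle proteins of the obstructor family, 2 rose and 0 fell in limma (2, *obst-G* and *obst-J*, were lower at an unadjusted p under 0.05). *obst-E*, which shapes the larval cuticle, went from 53.8 and 50.1 FPKM to 577 and 359 and rose by 3.11 (standard error 0.28, adjusted p = 0.00275, limma). Of 11 other cuticle and apical matrix genes, a single gene could be tested. This was *Pcp*, a pupal cuticle protein with the Rebers-Riddiford consensus, which fell by 3.85, from 1337 and 1269 FPKM to 79.5 and 99.96. *Edg84A*, another pupal cuticle gene, was listed at 0 in all 4 libraries, and *Acp65Aa*, an adult cuticle gene at 65A, had 0.299 and 0.583 FPKM in wildtype and 4.42 and 0.286 in the mutant.

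Of 20 genes of chitin synthesis, assembly and breakdown, 3 rose and 5 fell. Without overlap, 12 of the 20 were above wildtype and 7 below. Those that rose were *mmy*, from 43.5 and 37.9 FPKM to 110 and 108, *Idgf2* and *Idgf6*. Chitinase genes went both ways. *Cht6* and *Cht7* were above wildtype without overlap but did not pass (adjusted p = 0.0960 and 0.127, limma). *Cht2* fell, from 94.2 and 89.5 FPKM to 31.2 and 30.6. The chitinase genes *Cht10*, from 110 and 115 FPKM to 5.15 and 1.91, and *Cht5*, from 27.5 and 24.5 to 2.19 and 1.60, fell by 4.75 and 3.23 (adjusted p = 0.00259 and 0.00211, limma). *kkv*, the chitin synthase of the cuticle, had 19.4 and 21.5 FPKM in wildtype and 18.4 and 15.96 in the mutant and did not pass (adjusted p = 0.259, limma). Of 9 tanning genes, 7 were tested, of which 3 fell and 1 rose. *b* (aspartate decarboxylase) and *e*, which conjugates its product to dopamine, fell by 5.15 and 4.65. The mutant replicates of *e* lay apart, at 5.36 and 0.560 FPKM. *Ddc* and *ple* were below wildtype without overlap but did not pass (adjusted p = 0.0187 and 0.0230, limma). HP1a mutant replicate 1 exceeded replicate 2 by more than 2 in log2(FPKM + 1) for 3 of the 9 genes, *Ddc*, *ple* and *e*.

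Stage and tissue markers were read in the same fit. All 5 tested salivary glue genes, which are made late in the third instar, fell (log2 fold changes from -9.05 to -7.12), with the 6 genes summing to 49634 and 53125 FPKM in wildtype and to 75.0 and 484 in the HP1a mutant. Of 16 ecdysone response genes and epidermal regulators, 9 were tested, 7 fell and 0 rose in limma (0 higher also at an unadjusted p under 0.05). The ecdysone receptor gene *EcR* went from 48.5 and 48.9 FPKM to 7.88 and 6.16, and the early genes *Eip74EF* and *Eip75B* fell by 2.85 and 2.48. Of 6 fat body storage genes, 3 rose, the larval serum protein genes *Lsp1alpha* (log2 fold change 2.71), *Lsp1beta* (1.28) and *Lsp1gamma* (2.26), and *Fbp1* fell by 7.35. Of 9 muscle markers, 7 were tested and 5 rose, and all 3 testis markers fell. All 5 midgut markers were above wildtype without overlap, and 1 passed. All 6 imaginal disc markers were below wildtype without overlap, and 1 of 3 tested passed. All 4 nervous system markers were below too, and both of the 2 tested passed. Over all genes, 14.9% were above and 64.1% below without overlap. The part of the stage markers and of tissue composition in the cuticle protein values was not tested.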

How the data were processed

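The authors sequenced rRNA-depleted cDNA libraries on an Illumina instrument and deposited FPKM for RefSeq transcripts from Cufflinks, each with its bounds and its status, library by library. The submitters' processing notes also name TopHat, with no versions, and coordinates are those of genome Release 5. Of 22608 rows, 21359 were matched by accession to a RefSeq gene of Release 6, used for names only, and 1249 were left out. FPKM were summed per gene over its rows (13556 genes). Fragments were taken as the square of FPKM over its standard deviation, with the upper bound read as 2 standard deviations above the value. They were whole within 0.02 for 76.6% to 94.1% of the member transcripts with fewer than 200. Genes were tested with limma 3.58.1 in R 4.3.3 on log2(FPKM + 1) (trend, Benjamini-Hochberg, FDR 0.01, the cutoff of 1.4 from the study's methods), since exact permutation of 2 against 2 libraries cannot give a p under 0.333. The pseudocount understates the change of low genes. The named genes are, in each family, the 5 highest in wildtype and the 5 highest in the mutant, and over all families the 5 largest rises and 5 largest falls past the FDR without overlap, with *Su(var)205* and genes of identical values. Others were named after their values were seen. Members and lists were chosen with earlier results of these data known. Of the lists, *Cp1* and *mwh* were left out as no cuticle genes. No sequences were analysed here. Python 3.11.15, pandas 2.3.3 and matplotlib 3.10.9 were used.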

Additional observations from a re-analysis of the deposited data

How the results depend on the processing

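Results were recomputed with a pseudocount of 0.1 or 5, without a filter or with a mean FPKM over 5, with genes of every Cufflinks status, after rescaling to a common median, after quantile normalization, with the replicate number as a block, with each library left out and, chosen after seeing the data, with repeated rows counted once. The 24 members past the FDR kept their direction under every alternative that tested them. Their calls held for 22 with a pseudocount of 0.1, 21 without a filter, 20 of the 21 tested with a mean FPKM over 5, 23 after rescaling, 21 after quantile normalization, 21 and 23 without HP1a mutant replicate 1 or 2, and 0 with either wildtype library left out. Rescaling gave 1177 higher and 945 lower (median log2 fold change -0.022), and quantile normalization 1038 higher and 897 lower (median -0.063). The members' median was then 2.28 and 2.32. It was 0.62 without a filter and 2.51 with a mean FPKM above 5, and the median of all genes was -0.57 with a pseudocount of 5 and -0.70 without a filter. With 1 library left out, 0 to 26 members were higher and 0 to 13 lower, and the members' median lay between 0.93 and 2.00. Over all genes, 0 to 822 were higher and 0 to 3867 lower, and the median lay between -0.95 and -0.74. The counts of 0 belong to the fits with 1 wildtype library, which is then assumed to vary like the mutant pair. *Cpr67B* turned to 0.34 with rescaling and ranged from -1.24 to 0.079 with 1 library left out, and *TwdlO* from -0.32 to 5.37. The causes were not tested. Same-numbered libraries did not deviate together (r = 0.028 over 9438 genes, which are no independent replicates). Each genotype gives only the difference between its replicates, so this cannot show whether the libraries were prepared in pairs. With the replicate block, 19 members were higher and 7 lower, and all 24 kept their call, while *Cpr67Fa1* and *Cpr67Fa2* gained one (adjusted p = 0.00374 and 0.00433, limma). Low wildtype levels rest on few fragments, which limits the folds of the genes near 0.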
